A study of Homo sapiens with 48 samples.

Results

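Aminoacyl-tRNA synthetases join each amino acid to its transfer RNA (tRNA). The transcripts of 36 of these enzymes were taken by gene symbol from a table of 61815 genes, 20 of them encoding enzymes of the cytosol and 16 encoding enzymes of mitochondria. All 36 were found once each and passed the filter on low counts, which kept 20009 genes, and no library held fewer than 150 counts of any of them. The symbols were chosen with earlier results of these data known, but no measured value entered the rule.

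The RNA came from 48 cultures in 16 groups of 3. All were 22Rv1, an established line of human prostate cancer that grows without added androgen, either unmodified (Rv1-WT), carrying firefly luciferase from a lentivirus (Rv1-Luc), or with edited Mediator kinases. The other 4 lines lack the Mediator kinases CDK8 and CDK19 (a double knockout, dKO) and carry 1 kinase put back with a lentiviral vector: wild-type CDK8 in dKO-8, wild-type CDK19 in dKO-19, and the kinase-dead D173A mutants of these in dKO-8M and dKO-19M. The study derived dKO-8 and dKO-8M from dKO cells that already carried an empty lentiviral vector, and dKO-19 and dKO-19M from dKO cells directly. Between dKO-8 and dKO-19, kinase and vector history cannot be told apart. For 72 hours a culture was exposed to 500 nM SNX631, which inhibits CDK8 and CDK19, or to its vehicle, 0.1% DMSO. Both unedited lines were kept either in FBS (fetal bovine serum) or in CSS (serum stripped of androgens with charcoal), and the dKO lines in FBS alone. Cells for CSS had also been passaged in that medium beforehand and were plated at a higher density, so medium, passage and density cannot be told apart.

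Each synthetase recognizes 1 amino acid and the tRNAs that carry it, and spends ATP to form the bond that the ribosome later uses. Most amino acids have separate nuclear genes for the cytosolic and the mitochondrial enzyme, named with 1 and 2, while GARS1 and KARS1 serve both compartments and EPRS1 joins glutamyl and prolyl activities in a single protein. Several cytosolic enzymes sit together in the multisynthetase complex. When amino acids run short or the endoplasmic reticulum is under stress, the kinase pathway that ends in the transcription factor ATF4 is known to raise the transcription of many cytosolic synthetases, together with genes of amino acid synthesis and import.

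The libraries held 13.2 to 31.5 M (mega) counts. Totals in Rv1-WT (13.2 to 18.2 M) did not overlap those in Rv1-Luc (19.52 to 27.3 M), and the 4 markers of B and plasma cells summed to 0.0669 to 0.400 CPM (a gene's counts divided by the TMM-scaled library total in M counts) in Rv1-WT and 1.32 to 11 CPM in Rv1-Luc. The part of these markers in the differences between these lines was not tested, and values at equal depth stand beside the comparison of the lines. All 6 luminal prostate markers were found in every line, summing to 2500 to 6190 CPM, while the leukocyte marker PTPRC stayed at or under 0.695 CPM. CDK8 transcripts lay at 25.4 to 28.3 CPM in Rv1-WT, 60.5 to 71.4 CPM in dKO-8 and 118 to 134 CPM in dKO-8M. CDK19 transcripts lay at 148 to 281 CPM in Rv1-WT, 469 to 519 CPM in dKO-19 and 298 to 360.0 CPM in dKO-19M. Transcripts of the deleted genes remained countable in the dKO lines, with CDK8 at 24.9 to 28.9 CPM in dKO-19 and CDK19 at 101 to 135 CPM in dKO-8, so RNA alone does not check the knockout. Replicate 1 of dKO-19M under vehicle stood apart from replicates 2 and 3 (chi-square per degree of freedom 16.01 and 15.5, against 1.42 between those), and replicate 1 of Rv1-Luc in FBS under vehicle stood apart from replicate 2 (8.82). Nothing in the labels says whether replicates were separate passages, so the tests measure the spread between these cultures. An FDR here is the Benjamini-Hochberg adjusted p of edgeR's quasi-likelihood F-test over all 20009 genes, a gene is called at an FDR under 0.01 with a fold change over 1.5, and a second count uses the FDR alone. Counts at an unadjusted p under 0.05 are given without the share of all genes, so they do not show an excess over other genes.

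The cytosolic enzymes were the more abundant ones. Compared per kilobase of exon annotated in GENCODE 29, so that long and short genes can be set side by side, the median level was 38.5 CPM per kb for the 20 cytosolic transcripts and 9.76 CPM per kb for the 16 mitochondrial ones, each gene taken at the mean of its 16 group means. With exons of the smaller GENCODE basic set of transcripts, an alternative added after the data were seen, the medians were 60.9 and 12.5. EPRS1 led with 120.1 CPM per kb, followed by the alanyl enzyme AARS1 with 93.7 and, as the highest mitochondrial transcript, the isoleucyl enzyme IARS2 with 90.8. The order at the top depended on the annotation, since the glycyl enzyme GARS1 led with the basic set (137, against 131 for EPRS1), and IARS2 then lay below its cytosolic counterpart IARS1 (106 and 115) and not above it (90.8 and 74.7). At the low end stood, by either annotation, TARS3, another threonyl enzyme of the cytosol, with 2.65 CPM per kb (3.33 with the basic set), and the mitochondrial valyl enzyme VARS2 with 2.82 (5.84). The cytosolic transcripts made up 79.3% to 87.6% of all synthetase CPM, depending on the group.

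The compartments also differed in how far their levels moved between groups. From the lowest to the highest of the 16 group means, the median range was 0.81 on the log2 scale for cytosolic and 0.52 for mitochondrial transcripts, and the median over the 10037 genes with a mean level above the lowest synthetase was 0.70. A range above 1 was reached by 8 of 20 cytosolic genes and by 1 of 16 mitochondrial genes. The widest was that of SARS1, the seryl enzyme, from 132 CPM in Rv1-Luc FBS under SNX631 to 440.3 CPM in Rv1-WT CSS under vehicle. Next came WARS1 (tryptophanyl, 1.67), AARS1 (1.62) and GARS1 (glycyl, 1.59). MARS2 was the wide one among mitochondrial genes (1.42), from 57.3 CPM in Rv1-WT CSS under vehicle to 153 CPM in dKO-19 under vehicle. The narrowest were HARS2 (0.32) and HARS1 (0.35), the histidyl pair, whose genes lie head to head on chromosome 5 and overlap at their starts.

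**Figure D1:**
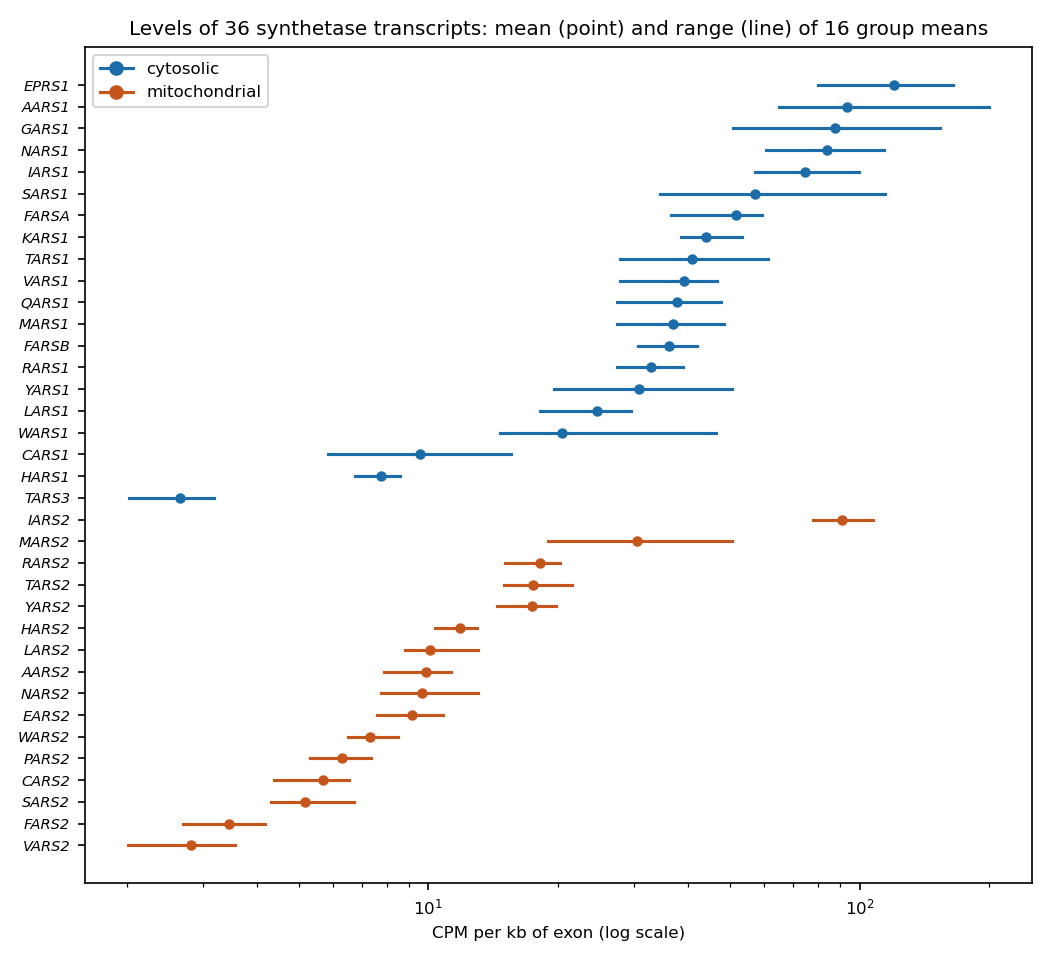
Level of each of the 36 synthetase transcripts in CPM per kb of exon on a log axis, with cytosolic enzymes in blue and mitochondrial enzymes in orange. Points are the mean of 16 group means and lines run from the lowest to the highest group mean. With this annotation EPRS1 leads at 120.1 CPM per kb (GARS1 leads with the basic set), IARS2 is the highest mitochondrial gene (90.8), and the lines of SARS1, WARS1, AARS1 and GARS1 are the longest.

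Promoter sequences are shown for members the following comparisons turn on, because ATF4 is known to bind a C/EBP-ATF composite element near the start of many of its targets. RefSeq promoters (GRCh38.p14, 250 bases before to 50 after an annotated start) were matched by symbol for 16 of 20 cytosolic genes, without LARS1, VARS1, YARS1 and TARS3, and for 14 of 16 mitochondrial genes, without AARS2 and VARS2. The letters TGATGNAA, on either strand, were found in 7 of 16 cytosolic genes (43.8%), in 1 of 14 mitochondrial genes (7.14%) and in 1217 of all 27305 genes of the table (4.46%), counting a gene once if any of its promoters held them. The 7 cytosolic genes were AARS1, CARS1, GARS1, IARS1, MARS1, NARS1 and TARS1, and the mitochondrial gene was YARS2. An NRF1 core (TGCGCANGC), often described in promoters of genes for mitochondrial proteins, was found in 3 of 16 cytosolic, 2 of 14 mitochondrial and 5.28% of all genes. An E-box (CACGTG) was found in 1 of 16, 3 of 14 and 8.77%. None of the 8 composite matches in these promoters overlapped a match to either other motif. Below are 4 promoters with a composite match, then those of SARS1 and MARS2, which hold none in the window, each from 250 bases before to 30 bases after the start, 5′ to 3′ on the gene's strand, with the composite match in capitals. The MARS2 window holds an NRF1 core and an E-box and the SARS1 window an NRF1 core, which are left in lower case.
AARS1 (chr16:70289477-70289756, minus strand): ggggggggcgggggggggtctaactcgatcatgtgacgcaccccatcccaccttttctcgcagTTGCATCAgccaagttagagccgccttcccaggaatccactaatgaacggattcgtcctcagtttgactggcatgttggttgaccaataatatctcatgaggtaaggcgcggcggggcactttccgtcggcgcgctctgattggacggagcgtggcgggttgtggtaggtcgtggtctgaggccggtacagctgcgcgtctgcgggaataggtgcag
GARS1 (chr7:30594628-30594907, plus strand): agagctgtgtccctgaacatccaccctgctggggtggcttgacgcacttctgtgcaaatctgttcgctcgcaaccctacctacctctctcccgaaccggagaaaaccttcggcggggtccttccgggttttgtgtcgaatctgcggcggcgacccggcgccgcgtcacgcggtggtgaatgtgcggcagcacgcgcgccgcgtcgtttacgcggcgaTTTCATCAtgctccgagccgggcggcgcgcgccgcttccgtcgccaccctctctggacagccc
CARS1 (chr11:3057394-3057673, minus strand): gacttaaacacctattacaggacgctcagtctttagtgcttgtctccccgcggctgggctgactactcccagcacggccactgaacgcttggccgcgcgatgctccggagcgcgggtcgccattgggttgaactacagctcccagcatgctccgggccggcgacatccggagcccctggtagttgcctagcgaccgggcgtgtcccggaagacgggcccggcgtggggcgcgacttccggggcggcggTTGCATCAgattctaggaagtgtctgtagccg
MARS1 (chr12:57487818-57488097, plus strand): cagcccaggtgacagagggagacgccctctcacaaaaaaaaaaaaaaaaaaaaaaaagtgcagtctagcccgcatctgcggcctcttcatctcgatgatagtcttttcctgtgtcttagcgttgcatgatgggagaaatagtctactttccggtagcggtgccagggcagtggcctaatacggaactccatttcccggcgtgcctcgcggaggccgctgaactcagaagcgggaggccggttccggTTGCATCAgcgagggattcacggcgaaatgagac
SARS1 (chr1:109213643-109213922, plus strand): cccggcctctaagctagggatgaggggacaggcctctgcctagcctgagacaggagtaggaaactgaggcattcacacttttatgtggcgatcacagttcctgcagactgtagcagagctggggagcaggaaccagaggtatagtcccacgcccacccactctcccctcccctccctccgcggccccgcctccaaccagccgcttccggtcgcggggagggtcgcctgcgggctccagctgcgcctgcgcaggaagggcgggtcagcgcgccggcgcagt
MARS2 (chr2:197705119-197705398, plus strand): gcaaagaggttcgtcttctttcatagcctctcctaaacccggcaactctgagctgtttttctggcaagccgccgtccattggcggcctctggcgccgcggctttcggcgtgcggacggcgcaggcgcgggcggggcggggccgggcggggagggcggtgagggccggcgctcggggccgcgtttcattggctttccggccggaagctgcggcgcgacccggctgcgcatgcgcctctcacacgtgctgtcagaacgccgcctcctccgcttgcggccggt

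All 4 matches read on the reverse strand, with their first base at position -187 in AARS1, -33 in GARS1, -2 in CARS1 and -4 in MARS1, where 0 is the annotated start. A match describes letters and not a bound site, and the lack of one in SARS1 and MARS2 says only that these letters are not in this window.

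Most cytosolic synthetases fell under SNX631 in the cells that had been given back an active kinase. In dKO-8, which carries wild-type CDK8, 12 of 20 cytosolic transcripts fell and 1 rose at an FDR under 0.01, where 4.58% of all genes tested fell and 3.17% rose. The 12 that fell were the 12 on the list of enzymes widely described as ATF4 targets, and the median of that list was -0.48 on the log2 scale, against 0.053 for the other 8 cytosolic enzymes and 0.011 for the 16 mitochondrial ones. In dKO-19, with wild-type CDK19, 12 of 20 fell and 0 rose (7.67% and 5.53% of all genes), among them 11 of the 12 ATF4 targets, whose median was -0.42. Of the 16 mitochondrial transcripts, 1 fell in dKO-8 and 2 in dKO-19, MARS2 being the gene in both lines and LARS2 (leucyl, -0.18) in dKO-19. The ATF4 target list was written from general knowledge with earlier results of these data known, so its counts are a description.

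SARS1, which charges serine and selenocysteine tRNA, changed most in dKO-8. Its levels were 268, 273 and 266 CPM under vehicle and 168, 163 and 169 CPM under SNX631. All 3 treated cultures lay far below the controls, a log2 change of -0.69 ± 0.048 (SE, FDR = 2.97e-17), and SARS1 was the member called in dKO-8 with the fold limit (1.71% of all genes). In dKO-19 the same gene stood at 248, 252 and 254 CPM under vehicle and at 160.4, 160.4 and 164 CPM under SNX631, a log2 change of -0.64 ± 0.049 (SE, FDR = 2.65e-16). These groups did not overlap either.

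With the fold limit, 2 cytosolic genes and 1 mitochondrial gene were called in dKO-19 (3.41% of all genes): SARS1, CARS1 and MARS2. CARS1, the cysteinyl enzyme, gave 114, 109 and 108 CPM under vehicle and 69.7, 70.4 and 75.5 CPM under SNX631 (log2 change -0.62 ± 0.055 SE, FDR = 7.47e-14). MARS2 gave 161, 147 and 151 CPM and then 93.7, 98.6 and 94.7 CPM (log2 change -0.68 ± 0.045 SE, FDR = 1.02e-18), the largest change under SNX631 of any mitochondrial synthetase in the 8 settings. For both genes every treated culture lay below every control.

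Other ATF4 targets followed at smaller size. GARS1, whose product also charges mitochondrial tRNA, was at 464, 452 and 443 CPM and fell to 308, 310.4 and 311 CPM in dKO-8, a log2 change of -0.55 ± 0.046 (SE, FDR = 2.01e-14). AARS1 fell by 0.53 in dKO-8 and by 0.46 in dKO-19 on the log2 scale, YARS1 (tyrosyl) by 0.52 and 0.54, and TARS1 (threonyl) by 0.50 and 0.46. The 4 ATF4 targets of the multisynthetase complex moved less evenly: in dKO-8 the methionyl enzyme MARS1 fell by 0.47, IARS1 by 0.40, EPRS1 by 0.34 and the leucyl enzyme LARS1 by 0.15. Of the remaining complex members, KARS1 (lysyl) did not pass the FDR limit at -0.12 (FDR = 0.0633), although its treated cultures all lay below the controls and the 95% interval was -0.21 to -0.029. QARS1 (glutaminyl) did not pass at 0.054 (FDR = 0.419), and RARS1 (arginyl) rose by 0.17 (FDR = 0.00582). Counts of MARS1 were fractional in 52.1% of libraries. TARS3 fell in dKO-19, by 0.37 (FDR = 0.00121), and its effect there was lower than in dKO-8 by 0.50 (FDR = 0.00787 for the difference, the 1 synthetase to pass in that contrast of the kinases, where 2.43% of all genes passed). That difference was lost in 8 of the 12 fits that leave out 1 library.

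Few synthetases passed the FDR limit under the same treatment in the kinase-dead lines. In dKO-8M, 0 of 36 synthetases passed the FDR limit by edgeR or by DESeq2, where 0.15% of all genes passed by edgeR, and 4 of 20 cytosolic and 2 of 16 mitochondrial genes had an unadjusted edgeR p under 0.05. In a fit to its own libraries alone 1 synthetase passed. The median of the ATF4 targets was -0.076, with all 12 values below 0. SARS1 stood at 179, 174 and 175 CPM under vehicle and 160.2, 169 and 166 CPM under SNX631. The treated cultures lay just below the controls, and the 95% interval of the log2 change was -0.19 to 0.0091. In dKO-19M, 2 cytosolic genes fell (0.69% of all genes fell and 0.265% rose) and 0 of 16 mitochondrial ones passed, with 3 of these at an unadjusted p under 0.05. The pair was SARS1 (-0.27 ± 0.048 SE, FDR = 0.0004) and YARS1 (-0.20 ± 0.044 SE, FDR = 0.00427). All 12 ATF4 targets were again below 0, from -0.27 for SARS1 to -0.019 for LARS1. TARS1 (-0.12) and AARS1 (-0.12) were the middle values of the 12. SARS1 gave 229.6, 202 and 204 CPM under vehicle, with the high value in the replicate that stood apart, and 180.3, 176 and 171 CPM under SNX631. Without replicate 1 of the vehicle group 0 synthetases passed in dKO-19M, without replicate 2 or 3 of the treated group 1 did, and with all libraries DESeq2 passed 4.

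The difference between active and dead kinase was tested directly. For CDK8 the effect of SNX631 was lower in dKO-8 than in dKO-8M for 10 of 20 cytosolic and 1 of 16 mitochondrial transcripts, where 2.07% of all genes were lower, and 0 cytosolic transcripts were higher. The widest was SARS1, with a difference of log2 changes of -0.60 ± 0.069 (SE, FDR = 4.95e-09), the 1 synthetase past both limits (0.905% of all genes) as long as replicate 2 of the treated dKO-8M cultures was kept and the scaling was not library size alone. GARS1 (-0.47), AARS1 (-0.47), TARS1 (-0.46) and CARS1 (-0.44) came next. For CDK19 the effect was lower in dKO-19 than in dKO-19M for 9 of 20 cytosolic and 1 of 16 mitochondrial transcripts (3.50% of all genes). The mitochondrial one was MARS2, at -0.59 ± 0.063 (SE, FDR = 1.82e-10), which lay so near the fold limit (2.07% of all genes called) that it was called in the fit as reported and in no other scaling, filter or test, and in 6 of the 12 fits that leave out 1 library. Between the active kinases, the effect in dKO-19 minus that in dKO-8 was -0.086 to 0.19 for SARS1 and -0.12 to 0.14 for GARS1 (95% intervals).

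**Figure D2:**
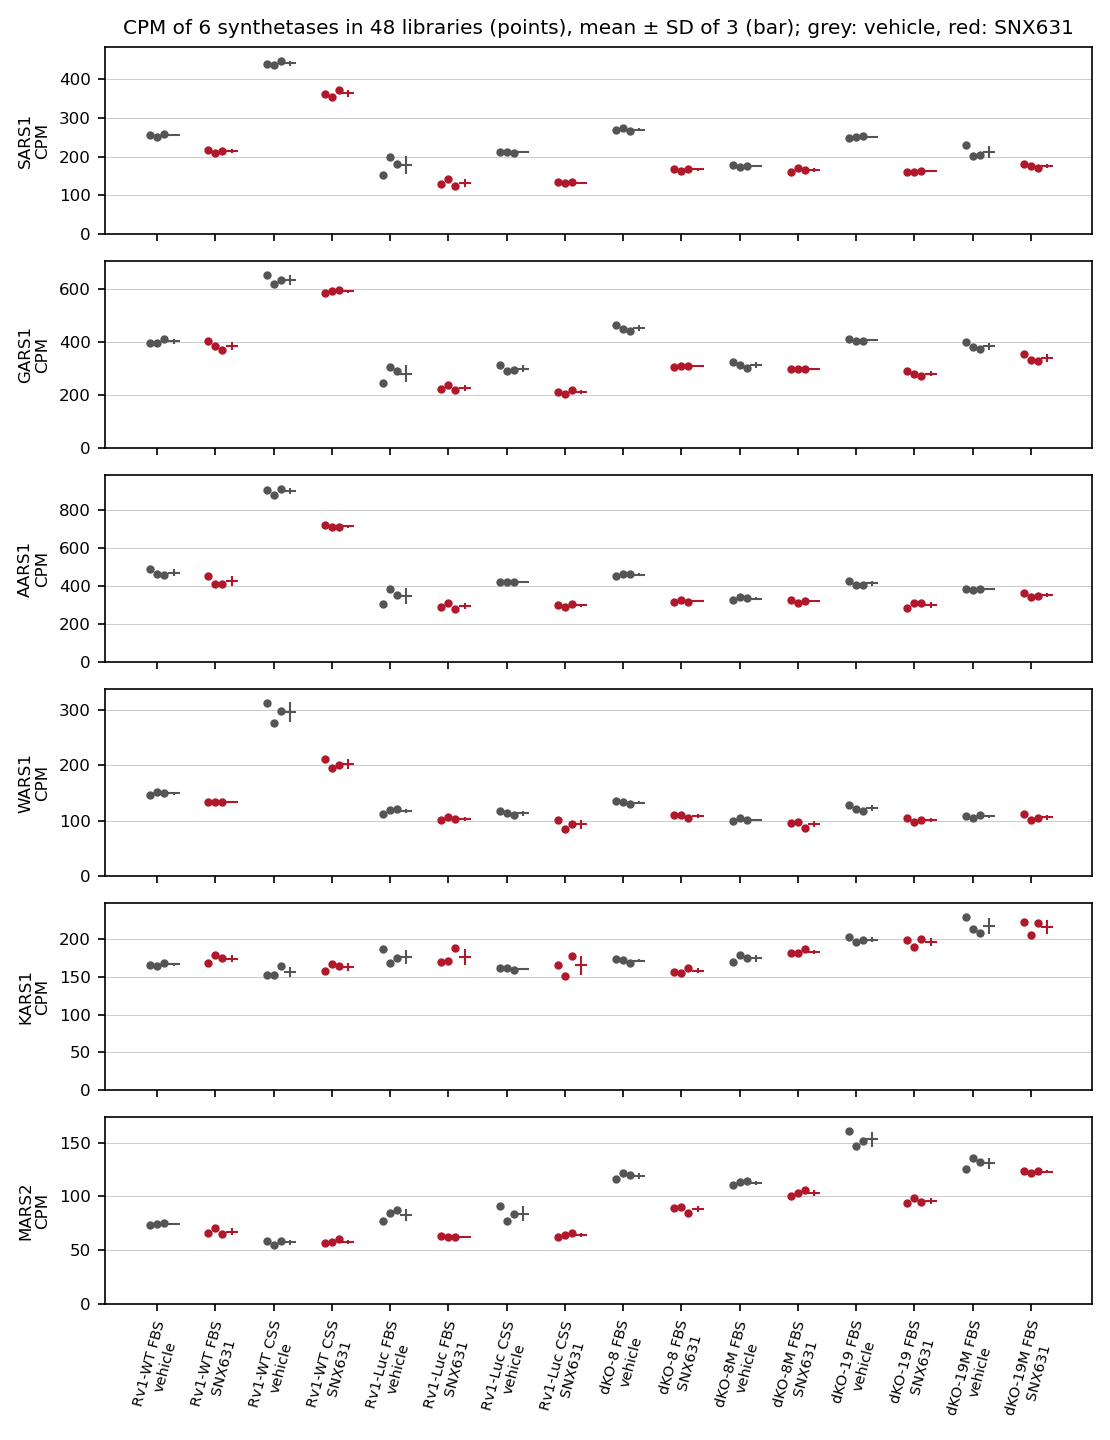
CPM of SARS1, GARS1, AARS1, WARS1, KARS1 and MARS2 in each of the 48 libraries, with the mean and SD of the 3 libraries of a group beside the points, vehicle in grey and SNX631 in red. Treated cultures lie below controls for SARS1, GARS1 and AARS1 in dKO-8 and dKO-19, and by less in dKO-19M. In dKO-8M they lie closer still, below controls for SARS1 and GARS1 and overlapping them for AARS1. KARS1 shows little movement and WARS1 rises mainly in Rv1-WT in CSS.

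Under vehicle, dKO-8M already held less of the same transcripts than dKO-8. This comparison and that of SNX631 in the active line subtract the same vehicle libraries of the active line. Variation in those cultures would move both comparisons the same way, so the overlap in genes is not independent. Against dKO-8, 13 of 20 cytosolic genes were lower in dKO-8M and 1 was higher, where 11.9% of all genes were lower and 9.87% higher. All 12 ATF4 targets were lower, with a median of -0.40, and VARS1 (valyl, -0.25) was the other lower one, while QARS1 was higher (0.26). SARS1 was the 1 synthetase past the fold limit (7.02% of all genes), at 176 ± 3.04 CPM (SD, n = 3) against 269 ± 3.96 CPM, a log2 difference of -0.61 ± 0.048 (SE, FDR = 4.03e-16). GARS1 (-0.52), AARS1 (-0.46) and YARS1 (-0.46) followed. Of the mitochondrial enzymes 6 of 16 were lower and 0 higher, here FARS2 (-0.42), RARS2 (-0.36), EARS2 (glutamyl, -0.31), VARS2 (-0.30), AARS2 (-0.27) and WARS2 (-0.22). These 6 are not the mitochondrial genes that fell with SNX631 in dKO-8, since MARS2 differed by -0.081 (FDR = 0.176). VARS2 had fractional counts (not whole numbers) in 95.8% of libraries, and its values are uncertain. The counting options behind such values are not given in the sources used here.

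The same comparison was made for CDK19, and its dKO-19 vehicle libraries are again those of the inhibitor comparison. In all, 6 of 20 cytosolic genes were reduced in dKO-19M relative to dKO-19 and 1 was higher (13.3% and 10.7% of all genes), and 4 of 16 mitochondrial ones were lower. The median of the ATF4 targets was -0.15, with NARS1 (asparaginyl, -0.31), TARS1 (-0.28) and SARS1 (-0.24) in front. EARS2 (-0.39) and LARS2 (-0.30) led the mitochondrial ones. Fitted to the libraries of this comparison alone, which include the dKO-19M replicate that stood apart, 4 synthetases passed in place of 11, 2 cytosolic and 2 mitochondrial ones, all lower. Scaled by library totals alone, 4 cytosolic genes were lower and 3 higher, and the cytosolic median was -0.057 in place of -0.10. Neither direction held a synthetase past the fold limit (7.60% of all genes), by edgeR or by DESeq2, although 14 of 20 cytosolic and 6 of 16 mitochondrial genes had an unadjusted p under 0.05. Each of these lines held its own level of CDK8 or CDK19 transcripts, as given above, and mutation and level cannot be told apart. Transcripts do not give the protein level. By the study's Western blot, CDK8 protein in dKO-8 lay below the parental level, and CDK19 protein in dKO-19 and dKO-19M lay far above it.

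**Figure D3:**
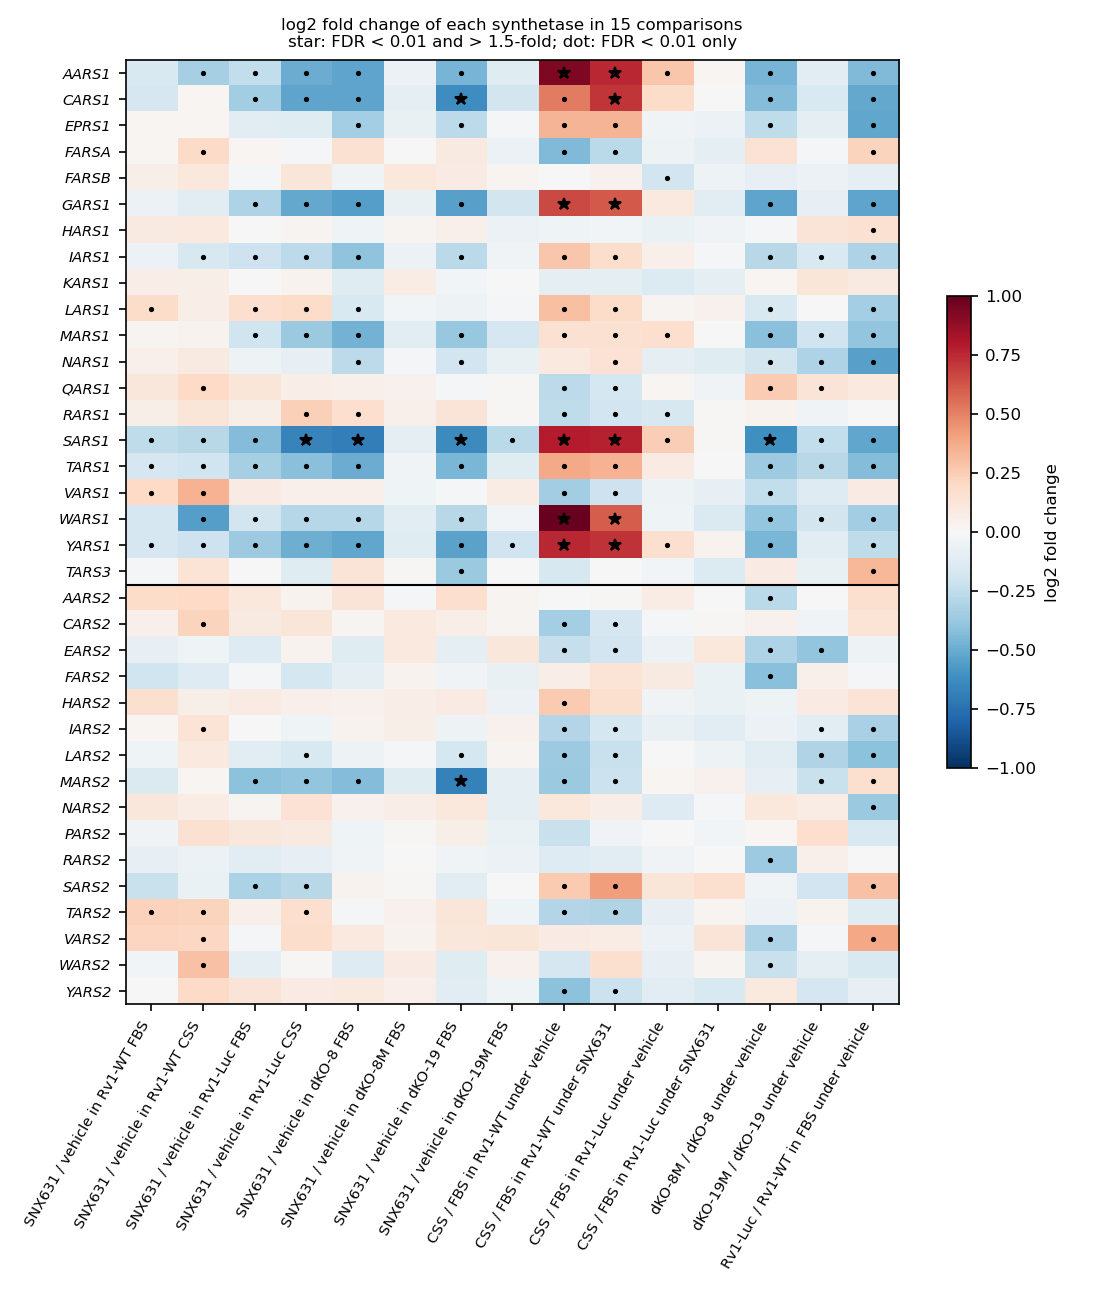
Log2 fold change of the 36 synthetases (cytosolic above the line, mitochondrial below) in the 15 comparisons between groups, on a color scale from -1 to 1. Stars mark an FDR under 0.01 with a fold change over 1.5 and dots an FDR under 0.01 alone. Most cytosolic ATF4 targets are blue under SNX631 in dKO-8, dKO-19 and Rv1-Luc and red in CSS in Rv1-WT, and the column for dKO-8M under SNX631 holds no mark.

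In the parental line and its luciferase subline, which keep both kinases, the effect of SNX631 was measured in both media. No test compared these lines with the dKO lines. In FBS, for Rv1-WT, 3 of 20 cytosolic transcripts fell and 2 rose, and 1 of 16 mitochondrial ones rose, where 3.97% of all genes fell and 4.81% rose. The fallers were SARS1 (-0.26 ± 0.049 SE, FDR = 7.96e-05), YARS1 (-0.17) and TARS1 (-0.17), and the risers were VARS1 (0.20), LARS1 (0.18) and the mitochondrial threonyl enzyme TARS2 (0.23). SARS1 went from 256, 251 and 258 CPM to 218, 208 and 215 CPM, without overlap. The count of 6 fell to 2 without replicate 2 of the vehicle group. In Rv1-WT in CSS 6 cytosolic genes fell and 3 rose, and 5 mitochondrial genes rose and 0 fell (7.81% of all genes fell, 9.79% rose). WARS1 was the widest there, at 313, 277 and 298 CPM under vehicle and 212, 195 and 200.3 CPM under SNX631, a log2 change of -0.55 ± 0.045 (SE, FDR = 5.07e-15) that did not reach the fold limit unless replicate 2 of the vehicle group was left out. VARS1 (0.35), WARS2 (0.30), TARS2 (0.22) and CARS2 (0.22) were the widest risers, and for WARS2 the treated and control cultures overlapped. No synthetase was called with the fold limit in Rv1-WT in either medium, by edgeR or by DESeq2, where 2.39% of all genes in FBS and 4.23% in CSS were.

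The same comparisons were made in Rv1-Luc. In FBS 9 of 20 cytosolic and 2 of 16 mitochondrial transcripts fell and 1 cytosolic one, LARS1, rose (6.08% of all genes fell, 7.15% rose), and none was past the fold limit (3.67% of all genes) by edgeR or DESeq2. In CSS 9 cytosolic and 3 mitochondrial transcripts fell while 2 and 1 rose (7.88% and 7.95% of all genes), and SARS1 was called with the fold limit (4.06% of all genes). SARS1 read 212, 211 and 210.2 CPM under vehicle and 134, 130.4 and 134 CPM under SNX631 in CSS, a log2 change of -0.67 ± 0.049 (SE, FDR = 7.34e-17). In FBS it read 153, 200.1 and 180.0 CPM and 128, 143 and 125 CPM, where replicate 1 of the controls was the low one and lay near the treated cultures (-0.43 ± 0.049 SE, FDR = 3.17e-10). MARS2 fell in both media (-0.41 in FBS, -0.39 in CSS), and so did SARS2, the mitochondrial seryl enzyme (-0.32 and -0.28), whose counts were fractional in 72.9% of libraries. The median of the ATF4 targets was -0.22 in FBS and -0.39 in CSS, beside -0.11 and -0.13 in Rv1-WT. Fitted to the libraries of that comparison alone, 3 synthetases passed the FDR limit in Rv1-Luc in FBS, against 12 in the fit to all libraries. With a replicate block added to the fit on those libraries, 8 cytosolic and 1 mitochondrial transcripts passed, all lower.

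Whether the lines or media differed in their response was tested as well. For the effect of SNX631 in Rv1-Luc minus that in Rv1-WT in FBS, 0 of 36 synthetases passed the FDR limit by edgeR or DESeq2 (0.655% of all genes passed), with 8 cytosolic and 3 mitochondrial genes at an unadjusted p under 0.05. That count depended on single libraries, for 7 synthetases passed without replicate 1 of Rv1-Luc in FBS under vehicle and 1 without replicate 2 of its treated cultures. Between CSS and FBS the effect differed for WARS1 in Rv1-WT (-0.38 ± 0.066 SE, FDR = 0.000102, where 1.38% of all genes passed), and for none in Rv1-Luc by edgeR or DESeq2 (0.17% of all genes), where 7 cytosolic and 2 mitochondrial genes had an unadjusted p under 0.05. Leaving out replicate 2 of the Rv1-Luc FBS controls made the latter count 2. Over the 8 settings with SNX631, SARS1 and YARS1 fell in 7, TARS1 in 6, and AARS1, IARS1 and WARS1 in 5. HARS1, KARS1 and FARSB (a subunit of the phenylalanyl enzyme) passed in 0 of 8 by edgeR, with log2 changes from -0.12 to 0.12.

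Growth in CSS moved the cytosolic enzymes up in Rv1-WT. Under vehicle 11 of 20 cytosolic transcripts rose and 4 fell, and 2 of 16 mitochondrial ones rose and 7 fell, where 17.1% of all genes rose and 19.1% fell. The risers were 11 of the 12 ATF4 targets, with NARS1 (0.10, FDR = 0.0237) the one that did not pass. The fallers were FARSA, the other subunit of the phenylalanyl enzyme (-0.44, with fractional counts in 52.1% of libraries), VARS1 (-0.35), QARS1 (-0.26) and RARS1 (-0.25). The median was 0.45 for the ATF4 targets, -0.21 for the other cytosolic enzymes, -0.20 for the mitochondrial ones and 0.0071 over all genes.

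Past the fold limit were 5 cytosolic and 0 mitochondrial synthetases in this comparison (10.9% of all genes). WARS1, which is also known as an interferon-responsive gene, had the largest change, from 146, 151 and 150.2 CPM in FBS to 313, 277 and 298 CPM in CSS (log2 change 0.99 ± 0.046 SE, FDR = 8.13e-26). AARS1 rose from 490.4, 463 and 457 CPM to 904, 878 and 909 CPM (0.93 ± 0.046 SE, FDR = 7.23e-25), and its counts were fractional in 58.3% of libraries. SARS1 reached 439, 435 and 447 CPM in CSS from the FBS values given above (0.79 ± 0.048 SE, FDR = 6.34e-21). YARS1 rose from 246 ± 3.56 CPM (SD, n = 3) to 414 ± 16.8 CPM and GARS1 from 403 ± 8.14 CPM to 636 ± 18.1 CPM, log2 changes of 0.75 and 0.66. In all 5 genes the CSS cultures lay above every FBS culture.

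The picture was alike under SNX631. There 12 of 20 cytosolic genes rose in CSS and 4 fell, and 1 of 16 mitochondrial genes rose and 7 fell (14.7% and 16.6% of all genes). All 12 ATF4 targets were among the risers, and 6 genes were past the fold limit (7.83% of all genes), namely SARS1 (0.77), AARS1 (0.75), YARS1 (0.72), CARS1 (0.71), GARS1 (0.62) and WARS1 (0.60). Among the mitochondrial fallers in both treatments were YARS2 (tyrosyl, -0.41 under vehicle and -0.21 under SNX631), MARS2 (-0.37 and -0.21), LARS2 (-0.36 and -0.22), CARS2 (-0.34 and -0.17) and IARS2 (-0.29 and -0.18). SARS2 rose in both (0.26 and 0.42). The comparisons under vehicle and under SNX631 share no library.

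The medium was also changed in Rv1-Luc. Under vehicle 4 of 20 cytosolic genes rose and 2 fell (4.21% and 3.73% of all genes), led by AARS1 (0.28) and SARS1 (0.25), with 0 of 16 mitochondrial genes passing by edgeR and 2 at an unadjusted p under 0.05, and under SNX631 0 of 36 passed by edgeR and 1 by DESeq2 (7.06% of all genes by edgeR), with 4 cytosolic and 5 mitochondrial genes at an unadjusted p under 0.05. No synthetase was past the fold limit under vehicle by either tool (1.49% of all genes). Without replicate 1 of the FBS controls 2 synthetases passed the FDR limit in Rv1-Luc under vehicle, in place of 6, and without replicate 2 or 3 of the CSS controls 3 did. In a fit to the libraries of this comparison alone 0 of 36 passed, and with no filter on low counts 3 did. The CSS effect in Rv1-Luc minus that in Rv1-WT under vehicle was lower for 11 and higher for 3 of 20 cytosolic genes, and lower for 1 and higher for 5 of 16 mitochondrial genes, where 10.8% of all genes were lower and 14.2% higher. WARS1 (-1.03 ± 0.066 SE, FDR = 2.7e-19), AARS1 (-0.66 ± 0.065 SE, FDR = 2.55e-12) and YARS1 (-0.59 ± 0.062 SE, FDR = 1.58e-11) were past the fold limit (8.65% of all genes). Leaving out replicate 1 of the Rv1-Luc FBS controls made this 5 genes and leaving out replicate 2 made it 1.

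Even in FBS under vehicle Rv1-Luc held less of the ATF4 targets than Rv1-WT. A total of 12 of 20 cytosolic genes were lower and 3 higher, where 23.2% of all genes were lower and 18.6% higher, and the 12 lower ones were the ATF4 targets, with a median of -0.43. NARS1 (-0.55), EPRS1 (-0.52), SARS1 (-0.52), GARS1 (-0.52) and CARS1 (-0.51) lay lowest. EPRS1 gave 718, 687 and 694 CPM in Rv1-WT and 425, 530.3 and 507 CPM in Rv1-Luc, with no overlap. Higher were TARS3 (0.33), FARSA (0.22) and HARS1 (0.15). Mitochondrial genes went both ways, with LARS2 (-0.41), NARS2 (-0.37) and IARS2 (-0.33) lower and VARS2 (0.38), SARS2 (0.29) and MARS2 (0.16) higher. No gene was past the fold limit by edgeR or DESeq2 (17.8% of all genes), but 5 were once replicate 2 of the Rv1-Luc controls was left out. With all libraries thinned to the smallest total, 12 cytosolic genes were lower, while the higher ones went from 3 to 1 among cytosolic and from 3 to 1 among mitochondrial genes. The part of the plasma cell markers in these values was not tested.

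Set against each other within a library, the compartments moved apart and together with these conditions. The mean log2 CPM of the 20 cytosolic transcripts minus that of the 16 mitochondrial ones was 2.10 ± 0.012 (SD, n = 3) in Rv1-WT in FBS under vehicle and 2.46 ± 0.032 in CSS, the highest of the 16 groups. SNX631 brought it from 2.20 ± 0.012 to 1.98 ± 0.019 in dKO-8 and from 2.09 ± 0.022 to 1.89 ± 0.017 in dKO-19. In the kinase-dead lines it went from 2.11 ± 0.016 to 2.04 ± 0.022 in dKO-8M and from 2.06 ± 0.003 to 2.00 ± 0.011 in dKO-19M. In each of these 4 lines the 3 treated libraries lay below the 3 controls. The lowest group was Rv1-Luc in CSS under SNX631, at 1.79 ± 0.025. The mitochondrial mean itself stayed between 5.28 and 5.55 in all 16 groups, while the cytosolic mean ran from 7.19 to 7.79. No test was made of these means, since the genes are not independent replicates.

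**Figure D4:**
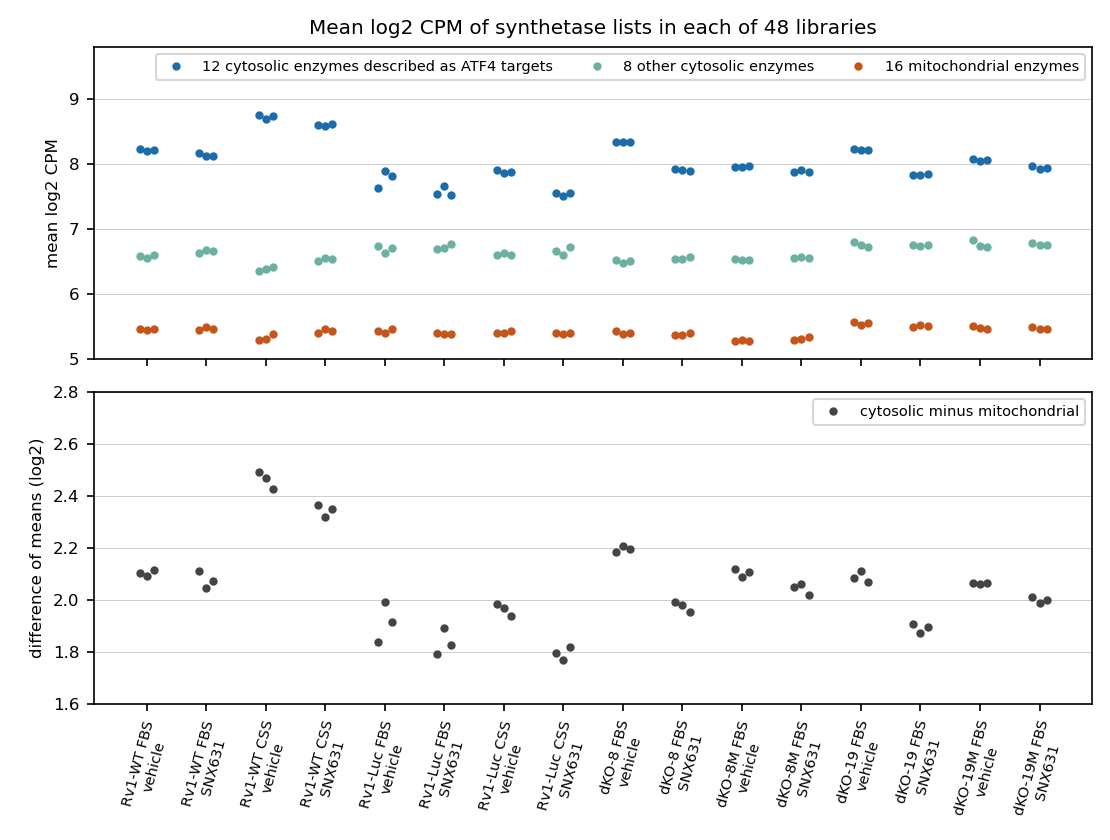
Mean log2 CPM of 3 sets of synthetases in each of the 48 libraries (upper panel) and the cytosolic minus the mitochondrial mean (lower panel), 3 points per group. Group means span 1.19 on the log2 scale for the 12 ATF4 targets, 0.39 for the 8 other cytosolic and 0.27 for the 16 mitochondrial enzymes, and the difference is highest in Rv1-WT in CSS under vehicle (2.43 to 2.49).

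Enzymes for the same amino acid can be set side by side. In 17 such pairs, the change under SNX631 in dKO-8 was lower for the cytosolic partner in 14, with a median difference of -0.22 on the log2 scale, and in dKO-19 in 12, with -0.17. The widest in dKO-8 were SARS1 minus SARS2 (-0.73), AARS1 minus AARS2 (-0.66) and YARS1 minus YARS2 (-0.62), and in dKO-19 CARS1 minus CARS2 (-0.69), AARS1 minus AARS2 (-0.63) and TARS1 minus TARS2 (-0.58). The cytosolic partner was the lower one in as many pairs in the kinase-dead lines, 14 in dKO-8M and 12 in dKO-19M, with median differences of -0.075 and -0.073. In CSS in Rv1-WT under vehicle the cytosolic partner was the higher one in 11 of 17 pairs (median 0.57), most in YARS1 minus YARS2 (1.16), WARS1 minus WARS2 (1.15) and AARS1 minus AARS2 (0.94). In Rv1-Luc under vehicle it was the higher one in 12 pairs, with a median of 0.038. The 3 pairs in which the cytosolic partner was not the lower one in dKO-8 were FARSA minus FARS2 (0.24), RARS1 minus RARS2 (0.20) and FARSB minus FARS2 (0.055). Both methionyl enzymes fell under SNX631, by 0.68 for MARS2 and 0.38 for MARS1 in dKO-19 and by 0.43 and 0.47 in dKO-8, while in CSS in Rv1-WT MARS1 rose by 0.15 and MARS2 fell by 0.37. EPRS1 and FARS2 each enter 2 pairs, so the pairs are not independent.

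**Figure D5:**
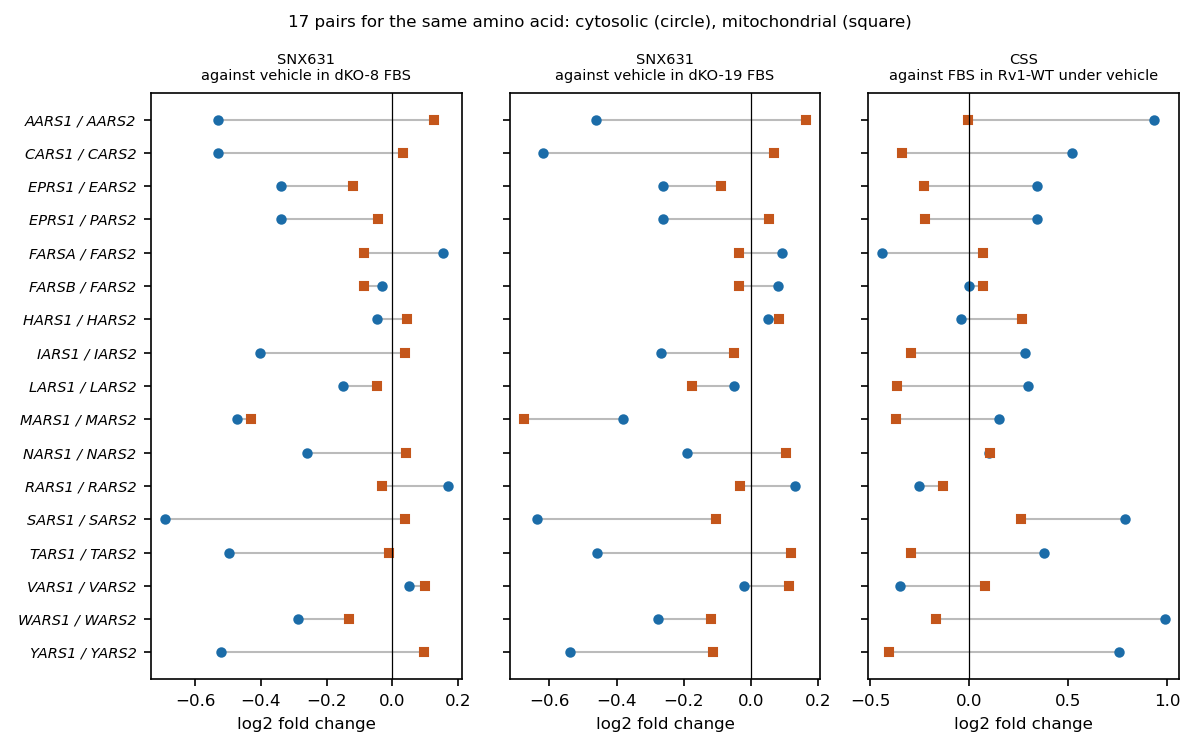
Log2 fold changes of cytosolic (blue circles) and mitochondrial (orange squares) enzymes for the same amino acid, 17 pairs, in dKO-8 and dKO-19 under SNX631 and in Rv1-WT in CSS under vehicle. Circles lie left of squares in 14 of 17 pairs in dKO-8 and right of them in 11 of 17 in CSS, and in dKO-19 the MARS2 square lies farthest left.

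The composite letters divided the cytosolic genes along similar lines. Under SNX631 in dKO-8 the median log2 change was -0.50 for the 7 cytosolic genes with a match and -0.046 for the 9 with a promoter but no match, and in dKO-19 it was -0.46 and -0.015. In CSS in Rv1-WT under vehicle it was 0.38 and -0.040. SARS1, WARS1 and EPRS1 belong to the 9 without a match. All 7 genes with a match are also on the ATF4 target list, so this split is not independent of that list. These are medians of few genes chosen by sequence, given as a description.

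Among 11 partners of the synthetases in tRNA charging, XPOT, the exportin that carries tRNA out of the nucleus, moved in the same directions as the ATF4 targets. It fell under SNX631 by 0.67 in dKO-8 (FDR = 2.02e-16) and by 0.49 in dKO-19 (FDR = 4.39e-12), stood at -0.093 in dKO-8M (FDR = 0.561), and rose by 0.61 when Rv1-WT was moved to CSS under vehicle (FDR = 3.68e-16). No other partner passed in dKO-8 or dKO-19. The scaffold proteins of the multisynthetase complex gave values near 0, with AIMP1 at -0.0057 (FDR = 0.959), AIMP2 at -0.058 (FDR = 0.518) and EEF1E1 at -0.045 (FDR = 0.78) in dKO-8. SEPSECS, which acts in a later step toward selenocysteine on tRNA charged by SARS1, rose in CSS in Rv1-WT by 0.69 (FDR = 8.57e-12). MTFMT, which formylates the methionyl-tRNA made by MARS2, fell there by 0.47 (FDR = 1.17e-05). Of 8 genes of the ATF4 branch itself (ATF4, ASNS, CHAC1, DDIT3, TRIB3, PSAT1, SESN2 and EIF2AK4), 7 fell under SNX631 in dKO-8, where 4.58% of all genes did. In dKO-19M 2 of them fell, DDIT3 by 0.62 and TRIB3 by 0.33, where 0.69% of all genes did. Counts of this list in the other comparisons are not given here. The log2 change of ASNS, the asparagine synthetase gene, was -1.16 in dKO-8 (FDR = 1.11e-11), -0.15 in dKO-8M (FDR = 0.659) and -0.24 in dKO-19M (FDR = 0.191).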

How the data were processed

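RNA-seq libraries of 48 cultures were analysed from expected counts per gene that the authors deposited in 1 table of 61815 genes and 2 transgene rows. Per the submitters' processing notes, the tools were FastQC, cutadapt 2.8, STAR 2.7.2b and featureCounts from Subread 2.0.3, and the annotation release is not given in the sources used here. Of the nonzero values 81.6% were whole, and the rest were rounded. Groups came from the labels. Genes with enough counts by edgeR's filterByExpr (minimum count 10, minimum total 15) were kept, 20009 in all, scaled by TMM and fitted in 1 quasi-likelihood model with 16 group means (edgeR 4.0.16, R 4.3.3, 32 residual degrees of freedom), tested on simulated data. The 15 group comparisons and 7 differences of effects used a two-sided F-test with Benjamini-Hochberg adjustment over all genes (FDR). CPM values use TMM-scaled library totals, with depths of 13.2 to 31.5 M counts. DESeq2 1.42.0 and other scalings, filters, limits, a replicate block, thinned counts and leaving out each library were alternatives. The members and lists were chosen with earlier results of these data known. Named were the members called, otherwise the 3 with the lowest p in each direction, and for levels the extremes. Further members were named after their values were seen, to complete a list or a count.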

Additional observations from a re-analysis of the deposited data

Results flagged for a closer look

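Effects that differed between lines under the same contrast, by a direct test of the difference at an FDR under 0.01 with a fold over 1.5 (edgeR), are given here. The effect of SNX631 on SARS1 was lower in dKO-8 than in dKO-8M by a log2 difference of -0.60, and that on MARS2 was lower in dKO-19 than in dKO-19M by -0.59, which lies at the fold limit. The effect of CSS under vehicle was lower in Rv1-Luc than in Rv1-WT by -1.03 for WARS1, -0.66 for AARS1 and -0.59 for YARS1. With all libraries thinned to the smallest total these were -1.03, -0.68 and -0.61. The Rv1-Luc libraries also differ from those of Rv1-WT in plasma cell markers, whose part was not tested.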

How the results depend on the processing

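No called gene value changed direction under any alternative, and of 162 values of 22 called genes and comparisons without 1 library, 12 were no longer past both limits. The median of all genes moved by under 0.1 on the log2 scale under every scaling. The counts with the FDR limit alone, and levels per kb with exons of the GENCODE basic set (medians 60.9 for cytosolic and 12.5 for mitochondrial transcripts), were put under alternatives chosen after seeing the data. The cause of the changes below was not tested.

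With size factors by relative log expression, the number of synthetases called was 0 (from 1) for SNX631 effect in dKO-19 minus that in dKO-19M. Scaled by library totals alone, the number of synthetases called was 0 (from 1) for SNX631 effect in dKO-8 minus that in dKO-8M, 0 (from 1) for SNX631 effect in dKO-19 minus that in dKO-19M and 5 (from 3) for CSS effect in Rv1-Luc minus that in Rv1-WT under vehicle. Scaled by library totals alone, the number of synthetases past the FDR limit was 0 (from 1) for SNX631 effect in dKO-19 minus that in dKO-8. Scaled by library totals alone, the cytosolic median log2 change was 0.027 (from 0.046) for SNX631 in Rv1-WT CSS, -0.26 (from -0.27) for SNX631 in dKO-8, -0.048 (from -0.037) for SNX631 in dKO-8M, -0.21 (from -0.26) for SNX631 in dKO-19, 0.28 (from 0.21) for CSS in Rv1-WT under vehicle, 0.20 (from 0.17) for CSS in Rv1-WT under SNX631 and -0.057 (from -0.10) for dKO-19M against dKO-19 under vehicle. Scaled by library totals alone, the mitochondrial median log2 change was 0.018 (from -0.035) for SNX631 in dKO-19, -0.14 (from -0.20) for CSS in Rv1-WT under vehicle, -0.039 (from -0.071) for CSS in Rv1-WT under SNX631, 0.016 (from 3e-04) for CSS in Rv1-Luc under SNX631, 0.021 (from -0.025) for dKO-19M against dKO-19 under vehicle and -5e-04 (from -0.036) for Rv1-Luc against Rv1-WT in FBS under vehicle. With no filter on low counts, the number of synthetases called was 0 (from 1) for SNX631 effect in dKO-19 minus that in dKO-19M. With no filter on low counts, the number of synthetases past the FDR limit was 3 (from 6) for CSS in Rv1-Luc under vehicle and 1 (from 0) for SNX631 effect in CSS minus that in FBS, Rv1-Luc. With DESeq2, the number of synthetases called was 0 (from 1) for SNX631 effect in dKO-19 minus that in dKO-19M. With DESeq2, the number of synthetases past the FDR limit was 4 (from 2) for SNX631 in dKO-19M, 1 (from 0) for CSS in Rv1-Luc under SNX631 and 2 (from 1) for SNX631 effect in dKO-19 minus that in dKO-8. Fitted to the libraries of the comparison alone, the number of synthetases called was 0 (from 1) for SNX631 effect in dKO-19 minus that in dKO-19M. Fitted to the libraries of the comparison alone, the number of synthetases past the FDR limit was 3 (from 12) for SNX631 in Rv1-Luc FBS, 1 (from 0) for SNX631 in dKO-8M, 0 (from 2) for SNX631 in dKO-19M, 0 (from 6) for CSS in Rv1-Luc under vehicle, 4 (from 11) for dKO-19M against dKO-19 under vehicle and 3 (from 1) for SNX631 effect in dKO-19 minus that in dKO-8. Fitted to the libraries of the comparison alone, the mitochondrial median log2 change was -0.0023 (from -0.036) for Rv1-Luc against Rv1-WT in FBS under vehicle. With the replicate block, the number of synthetases called was 0 (from 1) for SNX631 effect in dKO-19 minus that in dKO-19M. With the replicate block, the number of synthetases past the FDR limit was 0 (from 2) for SNX631 in dKO-19M, 1 (from 6) for CSS in Rv1-Luc under vehicle, 5 (from 11) for dKO-19M against dKO-19 under vehicle, 3 (from 1) for SNX631 effect in dKO-19 minus that in dKO-8 and 2 (from 1) for SNX631 effect in CSS minus that in FBS, Rv1-WT. With counts thinned to the smallest library, the number of synthetases called was 0 (from 1) for SNX631 effect in dKO-19 minus that in dKO-19M. With counts thinned to the smallest library, the number of synthetases past the FDR limit was 0 (from 1) for SNX631 effect in dKO-19 minus that in dKO-8. With counts thinned to the smallest library, the cytosolic median log2 change was -0.29 (from -0.27) for SNX631 in dKO-8, -0.051 (from -0.037) for SNX631 in dKO-8M and -0.24 (from -0.25) for dKO-8M against dKO-8 under vehicle. With counts thinned to the smallest library, the mitochondrial median log2 change was 0.015 (from -0.0093) for SNX631 in Rv1-Luc FBS, 0.057 (from 0.038) for SNX631 in dKO-8M, -0.0094 (from -0.035) for SNX631 in dKO-19 and 0.0052 (from -0.025) for dKO-19M against dKO-19 under vehicle. With an FDR under 0.05 and no fold limit, the number of synthetases called was 11 (from 0) for SNX631 in Rv1-WT FBS, 17 (from 0) for SNX631 in Rv1-WT CSS, 14 (from 0) for SNX631 in Rv1-Luc FBS, 18 (from 1) for SNX631 in Rv1-Luc CSS, 15 (from 1) for SNX631 in dKO-8, 15 (from 3) for SNX631 in dKO-19, 4 (from 0) for SNX631 in dKO-19M, 27 (from 5) for CSS in Rv1-WT under vehicle, 26 (from 6) for CSS in Rv1-WT under SNX631, 8 (from 0) for CSS in Rv1-Luc under vehicle, 3 (from 0) for CSS in Rv1-Luc under SNX631, 21 (from 1) for dKO-8M against dKO-8 under vehicle, 17 (from 0) for dKO-19M against dKO-19 under vehicle, 27 (from 0) for Rv1-Luc against Rv1-WT in FBS under vehicle, 12 (from 1) for SNX631 effect in dKO-8 minus that in dKO-8M, 14 (from 1) for SNX631 effect in dKO-19 minus that in dKO-19M, 2 (from 0) for SNX631 effect in dKO-19 minus that in dKO-8, 2 (from 0) for SNX631 effect in CSS minus that in FBS, Rv1-WT, 3 (from 0) for SNX631 effect in Rv1-Luc minus that in Rv1-WT, FBS and 24 (from 3) for CSS effect in Rv1-Luc minus that in Rv1-WT under vehicle. Tested directly against a 1.5-fold change, the number of synthetases called was 0 (from 1) for SNX631 in Rv1-Luc CSS, 0 (from 1) for SNX631 in dKO-8, 0 (from 3) for SNX631 in dKO-19, 2 (from 6) for CSS in Rv1-WT under SNX631, 0 (from 1) for dKO-8M against dKO-8 under vehicle, 0 (from 1) for SNX631 effect in dKO-8 minus that in dKO-8M, 0 (from 1) for SNX631 effect in dKO-19 minus that in dKO-19M and 1 (from 3) for CSS effect in Rv1-Luc minus that in Rv1-WT under vehicle.

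Correlations between same-numbered cultures were low: 2 of 45 were over 0.1, and 0 comparisons had all 3 over it. Low correlations cannot show whether the replicate numbers pair the cultures. Set against the fit to all libraries, the replicate block moved no other count by over 1.5 times. For SNX631 in Rv1-Luc FBS, 2 cytosolic and 1 mitochondrial transcripts fell in the fit to its own libraries. With the block added to that fit, 8 and 1 fell.

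Leaving out 1 library in turn, the number of synthetases called ran from 0 to 1 for SNX631 in Rv1-WT CSS, 0 to 5 for Rv1-Luc against Rv1-WT in FBS under vehicle, 0 to 1 for SNX631 effect in dKO-8 minus that in dKO-8M, 0 to 1 for SNX631 effect in dKO-19 minus that in dKO-19M and 1 to 5 for CSS effect in Rv1-Luc minus that in Rv1-WT under vehicle. Leaving out 1 library in turn, the number of synthetases past the FDR limit ran from 2 to 5 for SNX631 in Rv1-WT FBS, 0 to 3 for SNX631 in dKO-19M, 2 to 6 for CSS in Rv1-Luc under vehicle, 0 to 1 for CSS in Rv1-Luc under SNX631, 0 to 1 for SNX631 effect in dKO-19 minus that in dKO-8, 1 to 2 for SNX631 effect in CSS minus that in FBS, Rv1-WT, 0 to 2 for SNX631 effect in CSS minus that in FBS, Rv1-Luc and 0 to 7 for SNX631 effect in Rv1-Luc minus that in Rv1-WT, FBS. Leaving out 1 library in turn, the cytosolic median log2 change ran from -0.0035 to 0.040 for SNX631 in Rv1-WT FBS, -0.15 to -0.048 for SNX631 in Rv1-Luc FBS, -0.29 to -0.25 for SNX631 in dKO-8, -0.26 to -0.24 for dKO-8M against dKO-8 under vehicle and -0.37 to -0.27 for Rv1-Luc against Rv1-WT in FBS under vehicle. Leaving out 1 library in turn, the mitochondrial median log2 change ran from -0.018 to 0.032 for SNX631 in Rv1-WT FBS, -0.024 to 0.024 for SNX631 in Rv1-Luc FBS, 0.012 to 0.048 for SNX631 in Rv1-Luc CSS, -0.048 to 0.012 for SNX631 in dKO-19M, -0.25 to -0.17 for CSS in Rv1-WT under vehicle, -0.12 to -0.037 for CSS in Rv1-WT under SNX631, -0.018 to 0.017 for CSS in Rv1-Luc under SNX631, -0.055 to -0.0048 for dKO-19M against dKO-19 under vehicle and -0.060 to -0.019 for Rv1-Luc against Rv1-WT in FBS under vehicle.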
